A study of Mus musculus with 4 samples.

Results

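The transcripts examined here encode Polycomb and trithorax proteins, histone acetyltransferases and deacetylases, and the chromatin remodelling subunits that act with them. They were taken by gene symbol from a list of 39 genes, and all 39 were found among the 55487 gene identifiers of the deposited tables. The RNA was that of satellite cells, the stem cells of skeletal muscle, from Tg:Pax7-nGFP mice, a line in which nuclear GFP under Pax7 control marks these cells. Minced skeletal muscle had received a vivo-morpholino, an antisense oligomer that enters cells unaided, during the opening digestion, before the cells were isolated. In 1 library from each of 2 mice the morpholino was a control, and in the other it was one that blocks exon 6 from entering the mature RNA of Numb, whose endocytic adaptor protein restrains Notch signalling, so each group held 2 libraries (n = 2) and both groups shared the genotype. The Numb exon 6 libraries are called exon 6 libraries hereafter. Every ± on a fold change is its standard error (SE) from the edgeR fit. That fit held 2 libraries per group except where 1 library is said to be left out. No source used here states the age or sex of the mice.

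Polycomb repressive complex 2 (PRC2) places the repressive H3K27 methyl mark on histones, and Polycomb repressive complex 1 (PRC1) reads that mark through chromobox proteins and ubiquitinates histone H2A. Trithorax complexes of the COMPASS family oppose them by methylating H3K4, with demethylases that erase the Polycomb mark and with acetyltransferases that open chromatin. In satellite cells these enzymes are known to hold the genes of differentiation silent, to guard Pax7 and Myf5 expression, and to admit MyoD to its targets when the cells activate.

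The estimated counts summed to between 230431665 and 355411827 per library. They derive from read coverage and are not numbers of sequenced fragments. The identity of the cells was checked on marker lists. The 10 satellite cell markers summed to 10200 TPM (a level scaled to transcript length and library size) in the control of mouse 1 and 11900 TPM in its exon 6 library, and to 11000 and 12000 TPM in mouse 2, and none was at 0. The 10 leukocyte markers summed to 29.9, 39.5, 30.8 and 51 TPM in the same order, with 4 of them under 1 TPM on average, and 8 myofibre markers to between 153 and 177 TPM. The 6 endothelial markers summed to 113 TPM in the exon 6 library of mouse 1 and to 74.8 to 81.6 TPM in the others, the 6 fibro-adipogenic ones to between 488 and 688 TPM, and the 5 glial ones to 30.6 TPM in that library and at most 15.5 TPM elsewhere. The satellite cell, leukocyte, myofibre, endothelial and fibro-adipogenic sums were each higher with the Numb exon 6 morpholino in both mice, and the part of other cells in the results was not tested. In bulk RNA, fewer cells of a type and less RNA per cell cannot be told apart. Numb itself, the targeted gene, stood at 27.2 and 39.7 TPM in mouse 1 and at 37.0 and 40.2 TPM in mouse 2 (control, then Numb exon 6), and values per gene do not resolve its exon 6.

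Levels of the chromatin regulators spanned more than 3 orders of magnitude. Their median was 21.0 TPM over the 39 genes, against 1.64 TPM over all tested genes. On average over the 4 libraries 32 of them stood at 10 TPM or more, 5 between 1 and 10 TPM, and 2 (Cbx2 and Hdac9) under 1 TPM. The 3 most abundant were Kdm6b, Hdac4 and Chd4. Kdm6b, a demethylase that removes H3K27 methylation, stood at 208 TPM (control) and 196 TPM (exon 6) in mouse 1, and at 307 and 305 TPM in mouse 2. Its mean lay at percentile 98.2 of all tested genes. Hdac4, a class IIa deacetylase that binds and represses Mef2 factors, stood at 176, 179, 148 and 149 TPM in the same order. Chd4, the ATPase of the NuRD deacetylase complex, stood at 80.8, 73.6, 120 and 113 TPM. In all 3 the libraries of a mouse lay closer to each other than to those of the other mouse. Hdac9, at the bottom, had estimated counts of 110, 58, 15 and 23, and Cbx2 of 82, 313, 206 and 132.

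**Figure D1:**
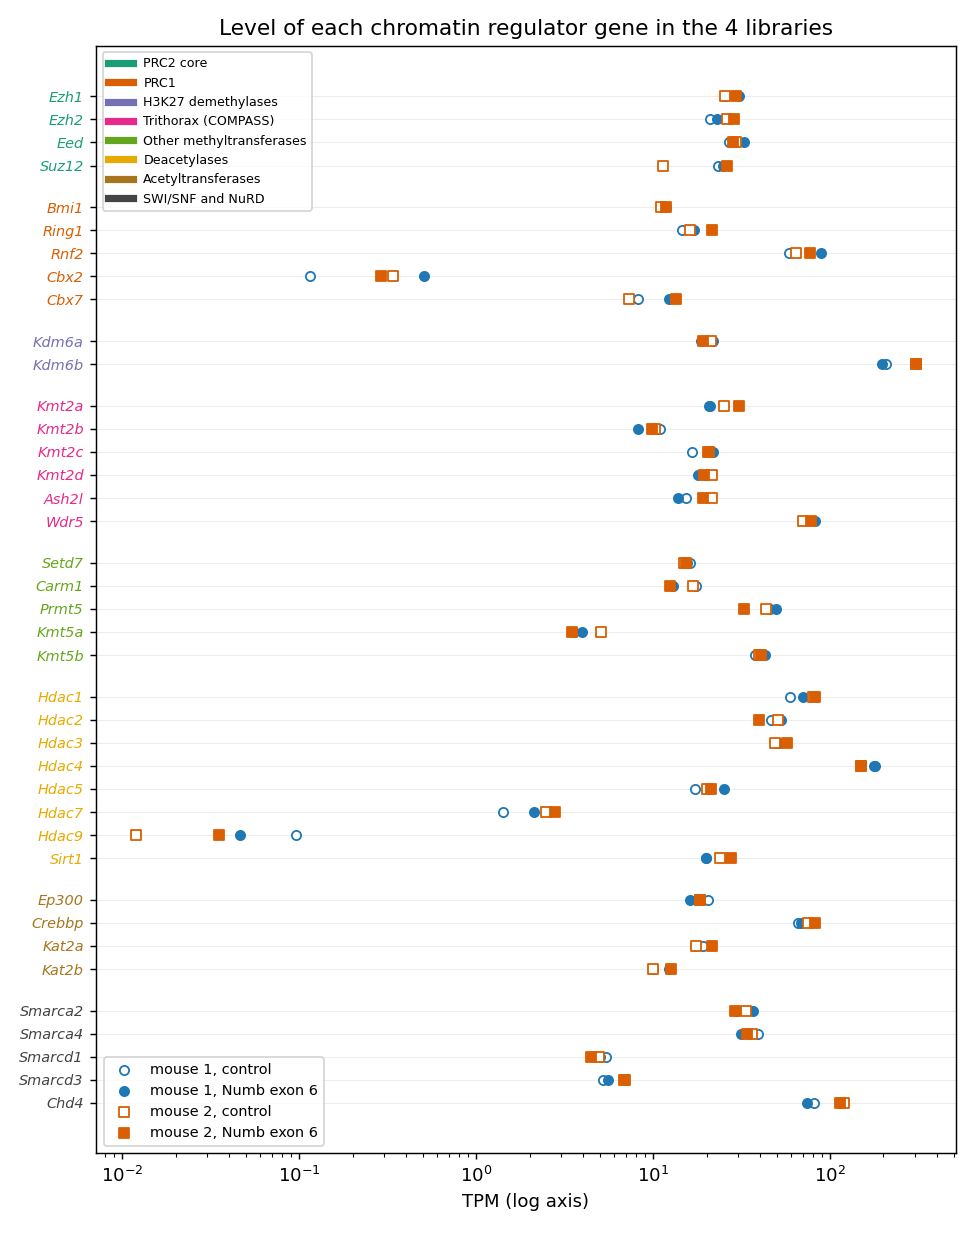
Level of each of the 39 genes in TPM (log axis) in the 4 libraries, with gene names coloured by role; open symbols are control and filled symbols Numb exon 6 libraries, circles mouse 1 and squares mouse 2. Most genes lie between 10 and 100 TPM, with Kdm6b and Hdac4 above and Cbx2 and Hdac9 below 1 TPM, and the Suz12 symbol of the control of mouse 2 stands apart at 11.4 TPM.

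The central comparison set the Numb exon 6 against the control morpholino. No chromatin regulator passed it. In the edgeR quasi-likelihood test over all 27551 genes that passed the expression filter, as all 39 did, 0 were called higher and 0 lower at an adjusted p of 0.05, against 0.0% of all genes higher and 0.0% lower. At an unadjusted p under 0.05 stood 4.16% of all genes. DESeq2 called 0 of the 39 as well, whether or not the mouse entered as a block, and so did limma on log2(TPM + 1). At an unadjusted edgeR p under 0.05 there were 2 higher, Cbx7 and Rnf2, and 1 lower, Carm1, against 2.5% and 1.66% of all tested genes. In the fit that paired libraries of a mouse (replicate block) there were 3 higher, the third being Kat2b, and again 1 lower, against 3.41% and 2.68%. Without the block, each library was also left out in turn. The log2 fold change then lay between 0.55 and 0.69 for Cbx7, between -0.67 and -0.49 for Carm1 and between 0.25 and 0.50 for Rnf2. These fits leave 1 library in a group, so their p cannot tell whether a gene depends on a single library. The median log2 fold change (Numb exon 6 minus control) was 0.02 over the 39 genes and 0.005 over all tested genes.

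Direction within each mouse was read from log2 ratios of CPM (counts scaled to library size but not to transcript length). Of the 39 genes 13 were higher in both mice (33.3%, against 28.1% of all tested genes) and 12 lower in both (30.8%, against 27.3%). The other 14 went different ways in the 2 mice. On log2(TPM + 1) the split was 16 higher and 8 lower (41.0% and 20.5%, against 32.1% and 23.0% of all tested genes). The even split thus holds for CPM only, and all tested genes were uneven on TPM too. In 7 genes both exon 6 libraries lay above both controls (17.9%, against 17.4% of all genes) and in 8 both lay below (20.5%, against 17.1%). These shares are near the background and are no result about the set. The split by role was less even. Of 5 PRC1 genes 4 were higher in both mice and 0 lower, while of 5 remodelling genes 0 were higher and 5 lower, with medians of 0.38 and -0.18 for the log2 fold change. On log2(TPM + 1) these counts were 4 and 0 for PRC1 and 0 and 3 for the remodelling genes. Among the other roles, PRC2 had 1 higher and 0 lower on CPM and 3 and 0 on TPM, and the deacetylases 3 and 1 on CPM and 5 and 0 on TPM. Whether the roles differ was not tested.

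**Figure D2:**
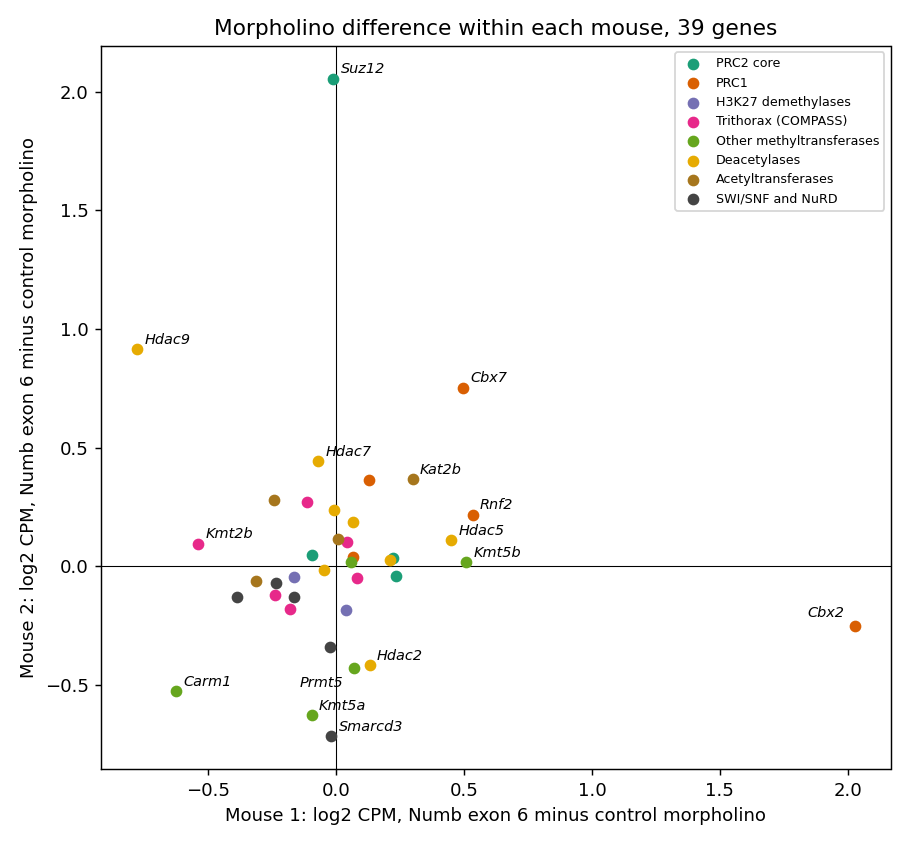
Log2 CPM difference, Numb exon 6 minus control morpholino, within mouse 1 (x) and mouse 2 (y) for the 39 genes, coloured by role; each point is 1 gene. Cbx7, Kat2b and Rnf2 lie in the upper right quadrant and Carm1 in the lower left, while Suz12 and Cbx2 differ by over 2 log2 units in 1 mouse only.

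The 4 core genes of PRC2 were Ezh1 and Ezh2, the alternative methyltransferases, Eed, which reads the methyl mark, and Suz12, the scaffold that holds the enzyme together. Suz12 (GRCm38 chromosome 11, 79993106 to 80034123, plus strand) had the largest difference of the 39 genes within 1 mouse on the CPM scale; in TPM the ratios of the scarce Cbx2 (2.15) and Hdac9 (1.56) exceeded its 1.20. In mouse 1 it stood at 43.2 CPM (control) and 42.9 CPM (exon 6), and in mouse 2 at 11.8 and 49.1 CPM. A single library, the control of mouse 2, was low and the other three were alike. The edgeR log2 fold change of 0.74 ± 0.58 (edgeR adjusted p = 0.999) was 0.08 ± 0.18 without that control and 1.96 ± 0.21 without the control of mouse 1 (edgeR adjusted p = 0.269). Ezh1 stood at 48.6 and 56.8 CPM in mouse 1 and at 48.1 and 49.4 CPM in mouse 2, so both exon 6 libraries lay above both controls, with ratios of 0.22 and 0.04. Ezh2, the form typical of dividing cells, stood at 22.0, 20.6, 25.1 and 25.9 CPM in the same order, and Eed at 19.1, 22.5, 19.4 and 18.9 CPM. For Ezh2 and Eed the morpholino groups overlapped.

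The 5 PRC1 genes gave 2 of the 3 genes with an unadjusted p under 0.05. Cbx7 (chromosome 15, 79915807 to 79971119, minus strand), a chromobox protein that docks PRC1 on H3K27 methylation, measured 13.8 CPM (mouse 1) and 12.6 CPM (mouse 2) in the controls, against 19.5 and 21.2 CPM in the exon 6 libraries. The groups did not overlap, and the log2 fold change was 0.63 ± 0.16 (edgeR adjusted p = 0.999). The mouse-blocked edgeR fit gave 0.63 ± 0.14 (adjusted p = 0.796), and DESeq2 with that block an adjusted p of 0.0763. Cbx7 shares exon sequence with Apobec3 on the opposite strand, and the libraries carry no strand, so its reads are partly uncertain. Apobec3 stood at 6.49 and 11.1 TPM in mouse 1 and at 7.64 and 9.77 TPM in mouse 2, higher with the Numb exon 6 morpholino too, and its part in the Cbx7 values was not tested.

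Rnf2 (chromosome 1, 151458004 to 151500955, minus strand) encodes RING1B, the main ubiquitin ligase of PRC1. It was the most abundant of the 5 on the TPM scale, at 58.9 to 88.3 TPM, and stood at 94.7 and 137 CPM in mouse 1 and 99.6 and 116 CPM in mouse 2. Both exon 6 libraries exceeded both controls, with a log2 fold change of 0.38 ± 0.13 (edgeR adjusted p = 0.999). Without the exon 6 library of mouse 1 it was 0.25 ± 0.18. Its exons also meet an opposite gene, Trmt1l, which stood at 13.1 to 18.3 TPM and was higher in mouse 1 (14.1 to 18.3 TPM) and lower in mouse 2 (14.7 to 13.1 TPM). Ring1, the paralogous ligase, had log2 ratios of 0.13 and 0.36 in mouse 1 and mouse 2, from 16.1 to 17.6 CPM and from 17.6 to 22.6 CPM. Bmi1, the partner that activates either ligase, stood between 19.6 and 21.2 CPM in all 4 libraries, with ratios of 0.07 and 0.04. Cbx2, a chromobox gene near the limit of detection, was the exception in direction, with a ratio of 2.03 in mouse 1 and of -0.25 in mouse 2 at under 1 CPM.

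Promoters are shown for the 4 PRC1 genes that were higher in both mice. Each is the 250 bases before the RefSeq transcription start on GRCm38.p6, in the direction of the gene, with the letters GGGCGG (the GC box, searched on both strands, overlaps merged) in capitals. Ring1 lies at chr17:34024681-34024930 (minus strand), Rnf2 at chr1:151500992-151501241 (minus), Bmi1 at chr2:18676768-18677017 (plus) and Cbx7 at chr15:79932647-79932896 (minus). The Cbx7 window lies inside the gene span given above, whose upstream end is at 79971119, so it does not precede the whole gene.
Ring1: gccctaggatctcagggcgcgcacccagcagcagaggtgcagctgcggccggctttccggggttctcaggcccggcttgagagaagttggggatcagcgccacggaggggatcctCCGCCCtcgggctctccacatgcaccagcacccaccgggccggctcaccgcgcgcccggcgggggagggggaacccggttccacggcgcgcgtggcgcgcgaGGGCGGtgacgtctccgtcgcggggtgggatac
Rnf2: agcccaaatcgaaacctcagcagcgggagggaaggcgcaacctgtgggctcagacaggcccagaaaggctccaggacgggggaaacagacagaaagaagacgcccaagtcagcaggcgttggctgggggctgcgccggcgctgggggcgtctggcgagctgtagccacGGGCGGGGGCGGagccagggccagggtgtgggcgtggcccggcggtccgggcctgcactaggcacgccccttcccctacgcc
Bmi1: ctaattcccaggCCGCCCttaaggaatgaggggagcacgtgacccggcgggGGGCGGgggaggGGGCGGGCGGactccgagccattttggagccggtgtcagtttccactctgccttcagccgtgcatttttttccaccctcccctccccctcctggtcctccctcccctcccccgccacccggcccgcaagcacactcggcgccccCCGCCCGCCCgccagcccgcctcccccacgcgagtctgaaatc
Cbx7: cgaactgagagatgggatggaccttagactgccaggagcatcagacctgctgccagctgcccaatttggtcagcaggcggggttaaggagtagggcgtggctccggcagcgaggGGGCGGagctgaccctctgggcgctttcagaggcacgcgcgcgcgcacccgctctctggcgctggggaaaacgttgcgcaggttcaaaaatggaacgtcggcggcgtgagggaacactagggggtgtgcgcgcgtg
GC made up 73.6%, 70.4%, 70.4% and 64.8% of the 4 windows, with 30, 20, 21 and 23 CpG dinucleotides. RefSeq promoters matched 32 of the 39 genes (41 windows). Of these 41 windows 68.3% held the GC box, against 32.7% of all 32851 windows of the same length, and the median GC content was 64.8% against 52.4%. TGGGAA, the core of the site of RBPJ (the DNA-binding partner of Notch), occurred on either strand in 14.6% of the 41 windows and 21.6% of all. Among the 4 shown, Bmi1 held 1 such match and Ring1, Rnf2 and Cbx7 held 0. These matches describe letters in the windows shown, not binding.

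Both H3K27 demethylases were near even between the morpholinos. Kdm6b (JMJD3) had log2 ratios of -0.16 (mouse 1) and -0.05 (mouse 2). Its X-linked paralogue Kdm6a (UTX) stood at 42.3, 43.4, 43.9 and 38.6 CPM in the control and exon 6 libraries of mouse 1 and then of mouse 2, with ratios of 0.04 and -0.19.

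Of the 6 trithorax genes, 1 was higher and 2 were lower in both mice on CPM, and 1 and 3 on TPM. Kmt2d (MLL4), which marks enhancers, measured 204 CPM (mouse 1) and 217 CPM (mouse 2) in the controls, against 180 and 192 CPM in the exon 6 libraries. Its ratios agreed closely, at -0.18 in each mouse, and the groups did not overlap. Its log2 fold change was -0.18 ± 0.11 (edgeR adjusted p = 0.999). The mouse-blocked edgeR fit gave -0.18 ± 0.08 (adjusted p = 0.796). Ash2l, a core COMPASS subunit linked to Pax7 in satellite cells, had ratios of -0.24 and -0.12. Wdr5, the scaffold subunit, was the one higher in both, with ratios of 0.04 and 0.10 at 99.5 to 114 CPM. Kmt2a (MLL1), which sustains Myf5 in satellite cells, went from 181 to 167 CPM in mouse 1 and from 208 to 250 CPM in mouse 2. Its paralogue Kmt2b stood at 24.5, 16.9, 21.3 and 22.7 CPM (control and exon 6 of mouse 1, then of mouse 2), with a ratio of -0.54 in mouse 1 and 0.10 in mouse 2. Kmt2c (MLL3), the partner enzyme of Kmt2d at enhancers, stood at 85.2, 90.2, 103 and 99.7 CPM, with ratios of 0.08 and -0.05. The 2 mice thus pointed opposite ways for Kmt2a, Kmt2b and Kmt2c.

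Among the other methyltransferases Carm1 stood out. Carm1 (chromosome 9, 21546894 to 21592623, plus strand) is an arginine methyltransferase that methylates PAX7 and thereby recruits trithorax complexes to Myf5. It measured 21.5 CPM (mouse 1) and 19.1 CPM (mouse 2) in the controls, against 13.9 and 13.2 CPM in the exon 6 libraries. The groups were well apart, with log2 ratios of -0.63 and -0.53. The log2 fold change was -0.58 ± 0.16 (edgeR adjusted p = 0.999), and DESeq2 blocked by mouse gave an adjusted p of 0.0955. In TPM Carm1 stood at 17.6 and 13.0 in mouse 1 and at 16.7 and 12.5 in mouse 2, with log2 ratios of -0.43 and -0.42. Exons of Carm1 overlap Yipf2 on the other strand, which was higher in the exon 6 libraries, from 4.27 to 5.21 TPM and from 5.61 to 6.99 TPM.

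Kmt5a, the enzyme of H4K20 monomethylation, was scarce, at 2.22 and 2.08 CPM in mouse 1 and 2.99 and 1.93 CPM in mouse 2, with a log2 fold change of -0.38 ± 0.28. Without the control of mouse 2 it was -0.16, and without that of mouse 1 it was -0.58. Kmt5b, which adds further methyl groups at that site, stood at 63.3 and 90.0 CPM in mouse 1 and 65.3 and 66.01 CPM in mouse 2. Only the exon 6 library of mouse 1 was high. Prmt5, a symmetric arginine methyltransferase needed for satellite cell expansion, had ratios of 0.07 and -0.43, and Setd7, a lysine methyltransferase, 0.06 and 0.02.

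Of the 8 deacetylases, 3 were higher and 1 was lower in both mice on the CPM scale. Hdac5, a class IIa enzyme, stood at 31.1 and 42.5 CPM in mouse 1 and at 33.9 and 36.6 CPM in mouse 2, so its groups did not overlap, although the log2 ratio was 0.45 in mouse 1 and 0.11 in mouse 2. Hdac1, Hdac2 and Hdac3 are the class I enzymes at the core of the main corepressor complexes. Hdac1 stood at 59.7, 69.0, 76.3 and 77.8 CPM (control and exon 6 of mouse 1, then of mouse 2), with ratios of 0.21 and 0.03. Hdac2 stood at 51.3, 56.2, 54.8 and 41.1 CPM, with ratios of 0.13 and -0.42, and Hdac3 had -0.01 and 0.24. For Hdac1 the libraries ordered by mouse and for Hdac2 the exon 6 libraries were the highest and the lowest. Hdac4 had -0.05 and -0.02. Hdac7, a class IIa enzyme best known from blood vessels, was scarce at 3.26, 3.11, 3.45 and 4.70 CPM, with ratios of -0.07 and 0.44. Sirt1, an NAD-dependent deacetylase tied to the metabolic switch of activating satellite cells, had 0.07 and 0.19. Hdac9 was the only one of the 39 genes with ratios beyond 0.5 in opposite directions (-0.78 and 0.92), at no more than 0.315 CPM.

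Of the 4 acetyltransferases, Kat2b (PCAF), which acetylates MyoD, was higher in both mice by a similar amount. It measured 20.6 CPM (mouse 1) and 20.7 CPM (mouse 2) in the controls, against 25.4 and 26.7 CPM in the exon 6 libraries, so each group was tight and they did not overlap. The log2 fold change was 0.33 ± 0.14 (edgeR adjusted p = 0.999, and 0.796 when blocked by mouse). Ep300 (p300) stood at 72.4 and 58.3 CPM in mouse 1 and 67.3 and 64.4 CPM in mouse 2, lower in both with ratios of -0.31 and -0.06. Its paralogue Crebbp (CBP), the most abundant of the 4 at 66.1 to 82.5 TPM, stood at 295, 296, 310.5 and 336 CPM in the order control and exon 6 of mouse 1, then of mouse 2. Kat2a (GCN5), the paralogue of Kat2b, stood at 31.8, 26.9, 28.0 and 33.9 CPM, with ratios of -0.24 and 0.28, so its exon 6 libraries were again the lowest and the highest.

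All 5 remodelling genes were lower in both mice on the CPM scale, none past the test. Smarca4 (BRG1), the ATPase that joins MyoD at muscle genes, measured 114 CPM (mouse 1) and 102 CPM (mouse 2) in the controls, against 87.5 and 93.5 CPM in the exon 6 libraries. Its log2 fold change was -0.26 ± 0.12 (edgeR adjusted p = 0.999). Smarcd3 (BAF60c), the subunit that marks MyoD targets before activation, stood at 6.80 and 6.71 CPM in mouse 1 and 8.76 and 5.33 CPM in mouse 2, a log2 fold change of -0.37 ± 0.24, or -0.19 without the control of mouse 2 and -0.21 without its exon 6 library. On log2(TPM + 1) that difference was 0.03, so its sign depends on the scale. Smarca2 (BRM), the alternative ATPase, stood at 73.7, 72.5, 82.1 and 64.9 CPM (control and exon 6 of mouse 1, then of mouse 2), with ratios of -0.02 and -0.34. Smarcd1 (BAF60a) stood at 8.48, 7.20, 7.38 and 7.03 CPM, with ratios of -0.24 and -0.07. Chd4 had -0.16 and -0.13, less than its gap between the mice. Smarca2 also changed sign on the TPM scale, where its ratio was 0.33 in mouse 1 and -0.21 in mouse 2, so the agreement of the 5 genes holds for CPM alone.

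**Figure D3:**
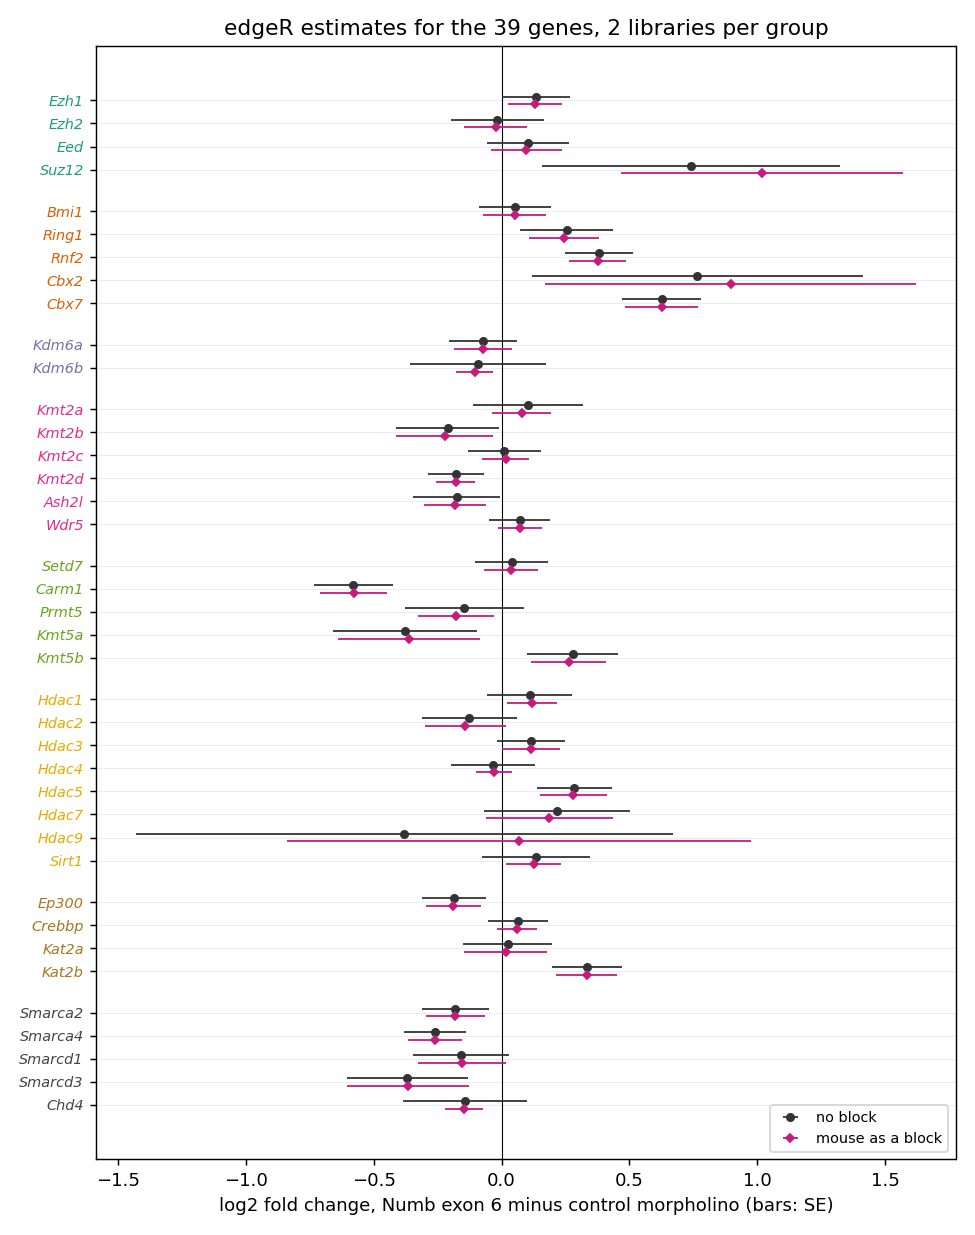
The edgeR log2 fold change of each gene (Numb exon 6 minus control; bars are SE, 2 libraries per group) without (circles) and with (diamonds) a block for the mouse, ordered by role. Cbx7 at 0.63 and Carm1 at -0.58 lie several SE from 0, the bars of Suz12, Cbx2 and Hdac9 are wide, and no gene passed the adjusted threshold.

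Balance between paralogues was compared in TPM, which allows levels of different genes to be set side by side. Ezh1 and Ezh2 were nearly equal, at an Ezh1 to Ezh2 ratio of 1.21 (control) and 1.34 (exon 6) in mouse 1 and of 0.971 and 1.02 in mouse 2. The mice were apart and the morpholinos overlapped. Kdm6b exceeded Kdm6a throughout, at a Kdm6a to Kdm6b ratio of 0.0626 to 0.110, and Crebbp exceeded Ep300, at an Ep300 to Crebbp ratio of 0.224 to 0.307. Kmt5b exceeded Kmt5a by 7.83 to 11.7 times and Hdac4 exceeded Hdac5, at an Hdac5 to Hdac4 ratio of 0.0982 to 0.143. The 2 BRG1-type ATPases stood close, at a Smarca2 to Smarca4 ratio of 0.754 to 1.17, as did Kmt2c and Kmt2d at 0.843 to 1.21. Kat2a exceeded Kat2b, at a Kat2b to Kat2a ratio of 0.526 to 0.719. Hdac1 exceeded Hdac2, at ratios of 1.29 and 1.33 in mouse 1 and of 1.57 and 2.08 in mouse 2. The Smarcd3 to Smarcd1 ratio was 0.954 and 1.11 in mouse 1 and 1.41 and 1.55 in mouse 2. Both of these pairs were thus apart by mouse and not by morpholino. Cbx7 exceeded the scarce Cbx2 by 21.4 to 71.4 times.

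Of 12 such pairs 6 had morpholino groups that did not overlap, and 4 had mice that did not overlap. With labels set at random over 2 and 2 libraries, a share of 0.333 of pairs would be apart. The share over other gene pairs was not computed, so the count is no result about paralogues. The Kmt2a to Kmt2b ratio was 1.92 (mouse 1) and 2.46 (mouse 2) in the controls, against 2.52 and 3.12 in the exon 6 libraries, a log2 difference of 0.37. For Kmt2c to Kmt2d, Kmt5b to Kmt5a, Hdac5 to Hdac4 and Kat2b to Kat2a the log2 differences were 0.33, 0.31, 0.30 and 0.24, and for Ep300 to Crebbp -0.25. With 2 libraries against 2 the exact two-sided permutation test cannot give a p below 0.333, the value each of these 6 had (adjusted over the 12 pairs, p = 0.666). None can therefore pass, and the remaining pairs overlapped.

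**Figure D4:**
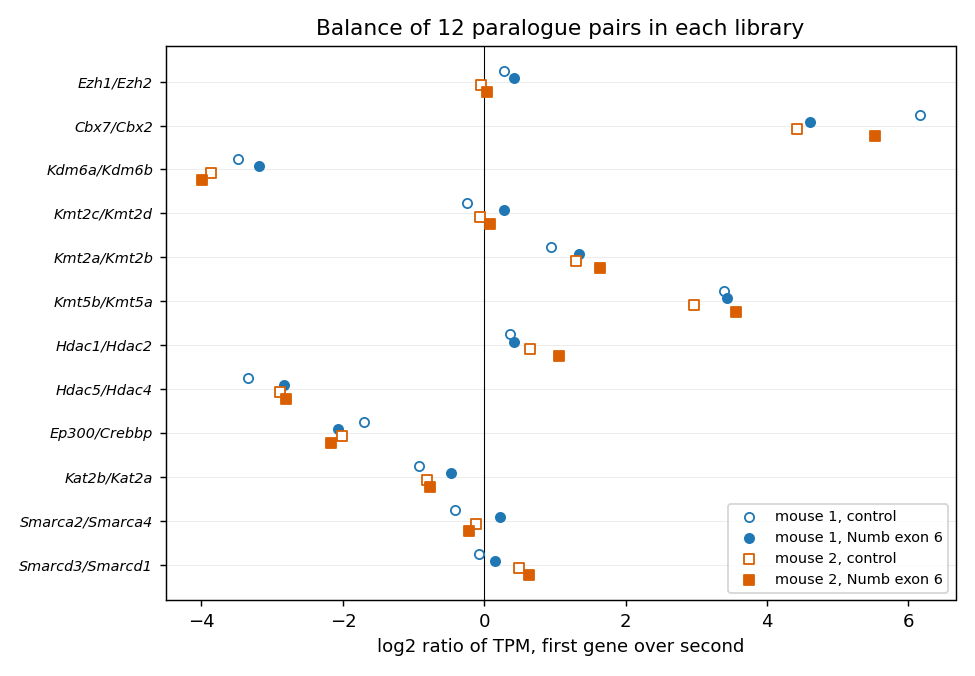
Log2 ratio of TPM for 12 pairs of paralogues in the 4 libraries (symbols as for the levels, set apart vertically for legibility); 0 marks equal levels. Ezh1/Ezh2, Kmt2c/Kmt2d and Smarca2/Smarca4 lie near 0, and Kdm6a/Kdm6b and Cbx7/Cbx2 lie farthest from it.

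CPM and TPM differ where the mix of transcript lengths of a gene differs between libraries. The deposited counts equal TPM times transcript length times a constant of the library, within 1% for 100% of 1965 genes with a single annotated transcript, so the ratio of count to TPM gives the mean transcript length that the authors' estimates imply. For 32 of the 39 genes this length differed by no more than 0.2 log2 units between the morpholinos in both mice. Suz12 was the farthest from that, with implied lengths of 3433 and 3366 bases in mouse 1 and of 1994 and 3700 bases in mouse 2, among annotated transcripts of 488 to 4373 bases. The library low in Suz12 counts was thus also the one whose Suz12 counts were assigned to shorter transcripts, and the log2 ratio of mouse 2 was 2.06 in CPM and 1.20 in TPM. Smarcd3 followed, with 2440, 2384, 2419 and 1528 bases in the same order, the last being the exon 6 library of mouse 2. Kmt5b had 3138, 4140, 3170 and 3174 bases, so the library with high Kmt5b CPM was the one with the longer implied transcripts, and its TPM there was 42.6 against 37.5 to 40.9 elsewhere. Hdac7 went from 4273 to 2887 bases in mouse 1 and from 2692 to 3336 bases in mouse 2. Exons of genes on the other strand also overlap Suz12 (Gm26563, 1.5 to 2.28 TPM), Smarcd3 (Chpf2, 6.43 to 9.06 TPM), Hdac7 (Slc48a1, 10.9 to 14.6 TPM) and Kdm6b (Kdm6bos, 8.0 to 11.7 TPM), whose reads are uncertain to that extent. Smarca2, Kmt2c and the scarce Hdac9 were the other genes beyond 0.2 log2 units. The fold change had opposite signs on the 2 scales for 6 genes, namely Ezh2, Hdac4, Kdm6a, Setd7, Smarca2 and Smarcd3. Cbx7, Carm1, Rnf2 and Kat2b kept their direction, with log2 fold changes of 0.67, -0.40, 0.42 and 0.29 on log2(TPM + 1).

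**Figure D5:**
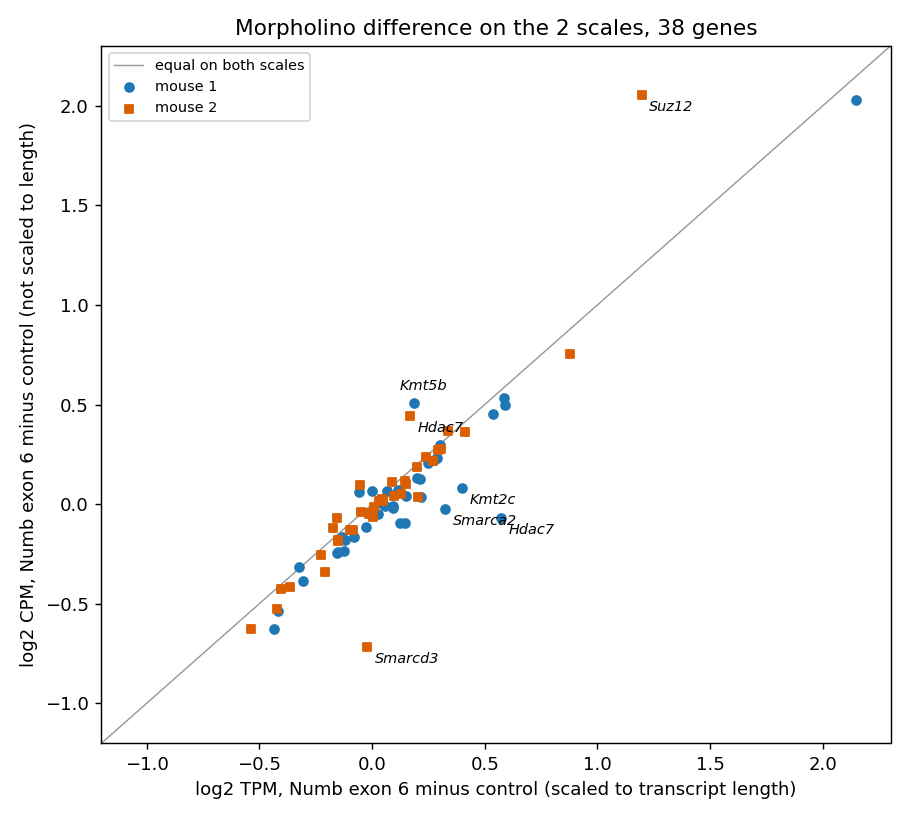
Log2 difference between the morpholinos within each mouse on TPM (x) and CPM (y) for 38 of the genes. Hdac9, the scarcest, is left out, and Cbx2, also under 1 TPM, is shown. The line marks equal values, and circles and squares are mouse 1 and mouse 2. Suz12 in mouse 2 lies at 1.20 and 2.06 and Smarcd3 in mouse 2 at -0.02 and -0.72, off the line, and most points follow it.

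The mice were also set side by side, 1 animal against 1 and therefore with no test. In 10 of the 39 genes both libraries of mouse 2 lay above both of mouse 1 (25.6%, against 20.9% of all tested genes), and in 6 both lay below (15.4%, against 18.8%). Kdm6b had the largest of these gaps upward, with 705 and 629 CPM in mouse 1 and 998 and 967 CPM in mouse 2, a log2 difference of 0.56 between the means. For Chd4, at 225 and 201 CPM against 315 and 288 CPM, it was 0.50, for Kmt2a 0.39, for Sirt1 0.39, for Hdac7 0.34, for Hdac1 and Ezh2 0.26, for Ash2l 0.22, for Kmt2c 0.21 and for Crebbp 0.13. In the other direction Prmt5 differed by -0.39 and Hdac4 by -0.30, with 572 and 554 CPM in mouse 1 and 458 and 454 CPM in mouse 2. Setd7, Wdr5 and Bmi1 differed by -0.17, -0.13 and -0.06, and Hdac9 by -1.69 at its low counts. For Kdm6b, Chd4 and Hdac4 the gap between the animals exceeded the difference between the morpholinos in either animal.

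The other subunits of the same complexes were read from lists of 107 further genes, of which 106 were measured and tested. None was called by edgeR (0 of 106). At an unadjusted edgeR p under 0.05 stood 6, 1 higher and 5 lower (0.943% and 4.72%, against 2.5% and 1.66% of all tested genes). In the mouse-blocked fit 8 did, 1 higher and 7 lower (0.943% and 6.6%, against 3.41% and 2.68%). DESeq2 called 81 of all 45277 genes it fitted, and 150 with the block, among them 1 and 2 of the 106. In both mice 26 were higher and 41 lower (24.5% and 38.7%, against 28.1% and 27.3% of all tested genes), with a median log2 fold change of -0.04. On log2(TPM + 1) 34 were higher and 36 lower (32.1% and 34.0%, against 32.1% and 23.0% of all tested genes). The median there was 0.016, against 0.021 over all tested genes. The share lower thus exceeded that of all tested genes on both scales, while the sign of the median depended on the scale. No test was made of this. The median level of the 106 was 19.8 TPM, against 1.64 TPM over all tested genes. The background is thus not matched for level, and the excess is no result about the subunits. On CPM, of the 11 further COMPASS subunits 0 were higher and 5 lower in both mice, of 19 corepressor subunits 3 and 9, of 17 SWI/SNF subunits 3 and 7, and of 17 PRC1 subunits 7 and 4. The same counts were 2 and 2 for 7 accessory PRC2 subunits, 3 and 1 for 5 H3K4 demethylases, 4 and 4 for 10 further deacetylases, 1 and 5 for 12 further acetyltransferases, and 3 and 4 for 8 arginine and H4K20 methyltransferases. On log2(TPM + 1) the COMPASS subunits had 3 higher (Men1, Ncoa6 and Paxip1) and 4 lower, the acetyltransferases 4 and 4, the corepressor subunits 4 and 10, the SWI/SNF subunits 2 and 7 and the PRC1 subunits 8 and 3.

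Setd1a, the H3K4 methyltransferase of a COMPASS complex of its own, was the clearest of these. It measured 27.6 CPM (mouse 1) and 27.4 CPM (mouse 2) in the controls, against 15.1 and 14.4 CPM in the exon 6 libraries. Replicates differed by little against the gap between groups, with log2 ratios of -0.88 and -0.93. The log2 fold change was -0.90 ± 0.14 (edgeR adjusted p = 0.999, and 0.796 with the block). DESeq2 alone called it, with an adjusted p of 0.00109 and of 4.34e-05 when blocked by mouse. Whether the count noise that DESeq2 assumes holds for estimated counts from read coverage was not tested, so its calls here are uncertain. In TPM it stood at 9.37 and 6.39 in mouse 1 and at 10.4 and 5.75 in mouse 2, and the log2 fold change on log2(TPM + 1) was -0.62. Its exons overlap 9430064I24Rik on the other strand, at 1.01 to 1.38 TPM.

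Smarcc1 (BAF155), a core SWI/SNF subunit, stood at 67.5 and 48.4 CPM in mouse 1 and at 62.1 and 41.7 CPM in mouse 2, a log2 fold change of -0.52 ± 0.14 (edgeR adjusted p = 0.999). DESeq2 called it when blocked by mouse (adjusted p = 0.0459) and not without it (0.374). Smarcc1, at 24.6 to 36.0 TPM, shares exon sequence with Dhx30 on the other strand, so its reads are uncertain. Dhx30 stood at 67.6 and 51.1 TPM in mouse 1 and at 55.9 and 54.1 TPM in mouse 2. It was thus also lower with the Numb exon 6 morpholino in both mice, and its part in the Smarcc1 values was not tested. The remaining 4 genes were deacetylases or their partners. Sirt2, a mainly cytoplasmic sirtuin, stood at 109, 89.9, 133 and 91.0 TPM (control and exon 6 of mouse 1, then of mouse 2), a log2 fold change of -0.45 ± 0.13. Hdac11, the sole class IV deacetylase, stood at 3.32, 3.08, 5.08 and 2.84 TPM (-0.69 ± 0.26), and the Sin3 subunit Sap30 at 19.9, 16.7, 31.0 and 16.2 TPM (-0.68 ± 0.24). The control of mouse 2 was the highest library for all 3, and without it the log2 fold changes of Hdac11 and Sap30 were -0.40 and -0.37. The tubulin deacetylase Hdac6 measured 35.6, 53.0, 42.8 and 49.7 CPM (0.39 ± 0.15), higher in both exon 6 libraries. Sirt2 shares exon sequence with Nfkbib, at 285 to 452 TPM, so its reads are uncertain. DESeq2 called none of these 4.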

How the data were processed

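Bulk RNA-seq was made from 5 ng of RNA per library by SMART-Seq2, per the labels' protocols, which amplifies full-length cDNA and keeps no strand. The submitters' processing notes name GRCm38, HISAT2 2.1.0 and StringTie 1.3.6. The authors deposited estimated counts, which are whole numbers, and TPM, scaled by the authors to transcript length and library. Libraries of the same number come from the same mouse per the labels, and after removal of group means their deviations correlated at 0.40 over 8469 well expressed genes (log2 CPM averaging at least 3) and at 0.06 over all 27551. Counts were fitted in edgeR 4.0.16 (R 4.3.3; quasi-likelihood, robust, TMM, default filter by group, no block, Benjamini-Hochberg over all genes at 0.05). CPM are TMM-scaled, and log2 ratios use a prior count of 2. Alternatives were the mouse block, DESeq2 1.42.0, limma 3.58.1 on log2(TPM + 1) and log2(TPM + 0.1), other size factors and filters, counts divided by 4, and removal of each library. The 2 libraries of a group come from different mice, so the spread within a group includes that between animals. Gene models come from GENCODE vM21 on GRCm38 and promoters from RefSeq. Genes described in full were the 5 with the smallest p, the 5 with the largest ratio of 1 sign, opposite ratios, paralogue pairs, and the 3 most and least abundant, with up to 3 partners per list at p under 0.05; Suz12 and the other genes given library by library outside this rule were chosen after their values were seen. The members and lists were chosen with earlier results of these data known.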

Additional observations from a re-analysis of the deposited data

How the results depend on the processing

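Of the 39 genes 0 were called under 12 of the alternatives, the replicate block included (0 with edgeR), so the block changed no call among them. Under the CPM filter of 5 only 35 were tested, with 0 called. Over all genes edgeR called 0, DESeq2 81 and, with the replicate block, 150, edgeR without a low-count filter 10 and after a stricter filter (CPM 5 or above in 2 libraries) 1, and leaving out 1 library gave 0 to 1. DESeq2 called 1 further subunit and, with the replicate block, 2. The median log2 fold change of the 39 genes was 0.075 and 0.081 on log2(TPM + 1) and log2(TPM + 0.1) against 0.024, and -0.012 to 0.052 without 1 library, the sign differing between libraries left out. Smarcd3 changed sign on the TPM scales (0.030 and 0.036). Without 1 library 8 to 10 paralogue pairs were apart, in place of 6, since an arm then holds 1 value. Of 180 alternative fold changes computed for 14 named genes, 178 kept their direction. The log2 fold change of Rnf2 ran from 0.25 without the exon 6 library of mouse 1 to 0.50 without that of mouse 2. The cause of these changes was not tested. Arms left with 1 library were assumed to vary like the other group. Cbx2 and Hdac9 were too scarce for their ratios to be read, and values per gene hold no measure of exon 6.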
